A study of Mus musculus with 9 samples.

Results

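Chaperones, folding enzymes and stress regulators of the endoplasmic reticulum (ER) were followed in a mouse leukaemia line after its FLT3-ITD oncogene was switched off. The 34 genes were taken by symbol, as members of the folding, stress sensing, degradation and translocation machinery of the ER. All 34 were found among the 24756 rows of the count table, and all 34 passed the filter on low counts, so that they stand among the 10215 tested genes. There were 19 folding genes, 3 sensors and transcription factors, 6 degradation genes and 6 translocation genes.

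The line was made from murine fetal liver cells with a pair of retroviral vectors. MSCV-Luc2-IRES-MLL-AF9 gives a constitutive MLL-AF9 fusion together with luciferase in all groups, and TRE-tight-DsRED-IRES-FLT3-ITD gives FLT3-ITD, a mutant receptor kinase that is active without ligand, only while doxycycline is present. There were 3 libraries from each of 3 groups. ON cells stayed in 1 µg/mL doxycycline, and OFF24 and OFF48 cells were washed free of it and then grown without it for 24 h or 48 h. Washing was described for the OFF cells only, so that the loss of doxycycline, the wash and the loss of FLT3-ITD cannot be told apart. All libraries come from the same line. Whether replicates were separate cultures is not stated in the labels, and the p-values measure only the spread among these libraries, which could be technical.

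Proteins that enter the ER pass through the Sec61 channel, with the help of the translocon-associated proteins encoded by the Ssr genes. Inside, the HSP70 chaperone BiP (Hspa5), the HSP90 chaperone GRP94 (Hsp90b1), the lectins calnexin and calreticulin and a family of disulphide isomerases fold them, and what fails to fold is returned to the cytosol and destroyed by ER-associated degradation (ERAD). When unfolded proteins build up, the sensors IRE1 (Ern1), ATF6 and PERK (Eif2ak3) start the unfolded protein response, in which ATF6 and the transcription factor XBP1, spliced by IRE1, raise chaperone and ERAD genes. Their best known binding sequence in the promoters of such genes is the ER stress response element (ERSE). Myeloid cells with many secretory granules, like other secretory cells, depend on this machinery.

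Promoter stretches are shown for some of the genes that carry an exact ERSE or its second form, ERSE-II, because chaperone and ERAD genes of this set both carry them. The stretches of the other carriers, Hsp90b1, Dnajb11, Calr and Canx, are not shown. RefSeq promoters (GRCm38.p6, from 250 bases before to 50 bases after the start) were given for 26 of the 34 genes. Hyou1, Hspa13, Sil1, Manf, Atf6, Derl1, Sec61a1 and Ssr2 had no entry. Both strands were searched, and each stretch reads 5′ to 3′ on the strand of its gene with the motif in capitals and 20 bases on each side. A motif in the opposite orientation therefore begins with CGTGG. The first 3 stretches belong to genes that were lower at both times, the next to a gene that was higher at 48 h, and the last pair to genes with no call.
Hspa5 (chr2:34772005-34772063, plus strand): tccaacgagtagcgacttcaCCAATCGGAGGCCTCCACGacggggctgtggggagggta
Pdia6 (chr12:17266471-17266529, plus strand): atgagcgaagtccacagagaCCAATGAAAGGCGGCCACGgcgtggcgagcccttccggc
Creld2 (chr15:88819500-88819558, plus strand): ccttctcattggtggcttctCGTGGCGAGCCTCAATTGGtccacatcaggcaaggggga
Herpud1 (chr8:94386357-94386407, plus strand): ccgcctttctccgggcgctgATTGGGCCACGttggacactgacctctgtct
Dnajc3 (chr14:118937807-118937865, plus strand): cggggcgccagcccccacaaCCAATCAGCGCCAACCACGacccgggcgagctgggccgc
Syvn1 (chr19:6046512-6046570, plus strand): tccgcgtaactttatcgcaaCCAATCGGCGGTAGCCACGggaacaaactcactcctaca

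The ERSE (CCAAT and CCACG with 9 bases between them) was found in promoters of 8 of the 26 genes (30.8%), against 37 of all 27025 genes in the table (0.137%). Its carriers were Hspa5, Hsp90b1 with 2 sites, Dnajc3, Calr, Canx, Pdia6, Creld2 and Syvn1, 7 of them folding genes. ERSE-II (ATTGG and CCACG with 1 base between them) was found for 2 genes (7.69%), Dnajb11 and Herpud1, against 0.0444% of all genes. The CCACG core, which both elements contain, was found for 21 (80.8%), against 35.5% of all genes, and the unfolded protein response element (TGACGTGG) for 0, against 0.714% of all genes. None of the promoters of Sec61b, Sec61g, Ssr1 and Ssr3, the translocation genes in the table, held an ERSE or ERSE-II. A match is a description of these letters and not a measured binding site. The genes were chosen by role, and the ERSE is known from promoters of such genes. Its higher share here is therefore no finding of these data.

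**Figure D1:**
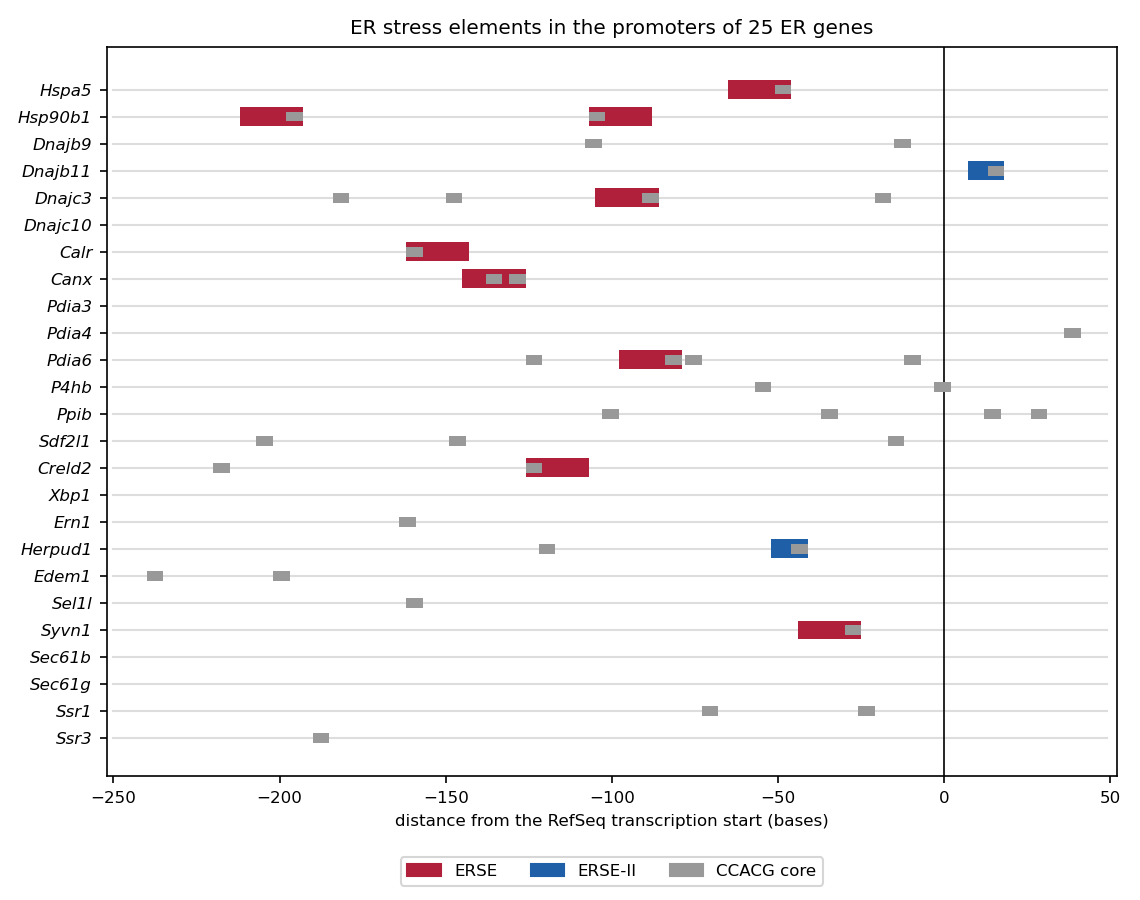
Matches to the ERSE (red), ERSE-II (blue) and the CCACG core (grey) on either strand in the promoters of 25 ER genes, by distance in bases from the RefSeq start on the x axis, with 1 gene per line. Derl2 is left out because it has 2 promoters in the table. Of the 10 genes with an ERSE or ERSE-II, 9 have it before the start, and Dnajb11 has it just after.

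The assay was 3' mRNA sequencing, in which reads come from near the 3' ends of polyadenylated transcripts. Such counts show neither XBP1 splicing nor ATF6 cleavage, and a transcript of the FLT3-ITD vector ends in vector sequence, so its loss cannot be checked with them. Library totals ran from 1329296 to 4038456 counts, and a floor of 3 counts corresponds to 0.737 to 2.25 CPM (counts scaled to library size), below the level of every member. Levels are CPM scaled by TMM and are not corrected for length. Of 10 myeloid markers, which define the labelled cell type, 0 were at 0 in all libraries, and their summed level was 3660 to 4201 CPM in OFF24 and 4769 to 5614 CPM in OFF48, against 2336 to 2539 CPM in ON. Mpo had means of 341 CPM in OFF24 and 759 CPM in OFF48, against 69.1 CPM in ON. Ptprc (190 and 173 CPM, against 164 CPM) and Ctsg (741 and 690 CPM, against 723 CPM) had no call in any comparison. The other markers of this list were called higher than in ON at 48 h. Markers of other cells of the fetal liver were low. The summed level of 5 erythroid markers was at most 1.19 CPM in OFF24 and 1.5 CPM in OFF48, against 0.358 CPM in ON, with Hbb-bs and Epor at 0. For 5 megakaryocyte, mast cell and basophil markers it was 16.7 to 21.7 CPM in OFF24 and 9.0 to 14.9 CPM in OFF48, against 5.61 to 7.87 CPM in ON, with Cpa3 at 0. Most of that sum was 1 gene, Mcpt8, with means of 16.8 CPM in OFF24 and 9.45 CPM in OFF48, against 5.69 CPM in ON. Mcpt8 was called higher than in ON at 24 h (edgeR adjusted p = 8.41e-05) and at 48 h (edgeR adjusted p = 0.0197). For 5 hepatocyte and stromal markers the summed level was 1.67 to 2.68 CPM in OFF24 and 0 to 4.37 CPM in OFF48, against 1.72 to 1.79 CPM in ON, with Alb, Ttr and Cdh5 at 0. The part of the higher myeloid markers in the results that follow was not tested.

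By 48 h without doxycycline 12 of the 19 folding genes and 5 of the 6 translocation genes of this set had fallen, while 0 of its 6 ERAD genes had. Dnajc10, which also serves degradation, is counted with the folding genes. In a wider list of 30 tested ERAD genes 2 fell and 12 rose at 48 h. In a wider list of 30 tested folding genes 8 fell and 5 rose, where 23.9% of all tested genes fell and 23.4% rose. The fall of the 19 folding genes was thus not seen to the same degree in the wider folding list. Of 39 other tested translocation, targeting and glycosylation genes 18 fell and 3 rose. Reads of the 34 genes together took 0.939% ± 0.0327 of all counts in OFF24 and 0.756% ± 0.0312 in OFF48, against 1.08% ± 0.0376 in ON (SD, n = 3 each). In edgeR's quasi-likelihood test with Benjamini-Hochberg adjustment over all genes, at a threshold of 0.05, 11 of the 34 fell and 1 rose in OFF24 relative to ON. Among all tested genes 17.4% fell and 17.8% rose in that comparison. In OFF48, 18 fell and 3 rose relative to ON, where 23.9% of all tested genes fell and 23.4% rose. Between the times, 13 were lower and 1 was higher in OFF48 than in OFF24, where 11.2% of all tested genes were lower and 9.99% higher. The share of members that fell was thus 32.4% at 24 h, 52.9% at 48 h and 38.2% between the times. Every member had a mean of at least 10 CPM over the 9 libraries, and of the 7927 genes at that level 19.7%, 25.9% and 11.9% fell in these comparisons. The median log2 fold change of the 34 was -0.17 at 24 h, -0.48 at 48 h and -0.19 between the times, against 0.03, 0.01 and 0.00 over all tested genes. Both times are compared with the same ON libraries, so their counts are not independent of each other. In bulk samples, fewer cells of a type and less RNA per cell cannot be told apart.

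**Figure D2:**
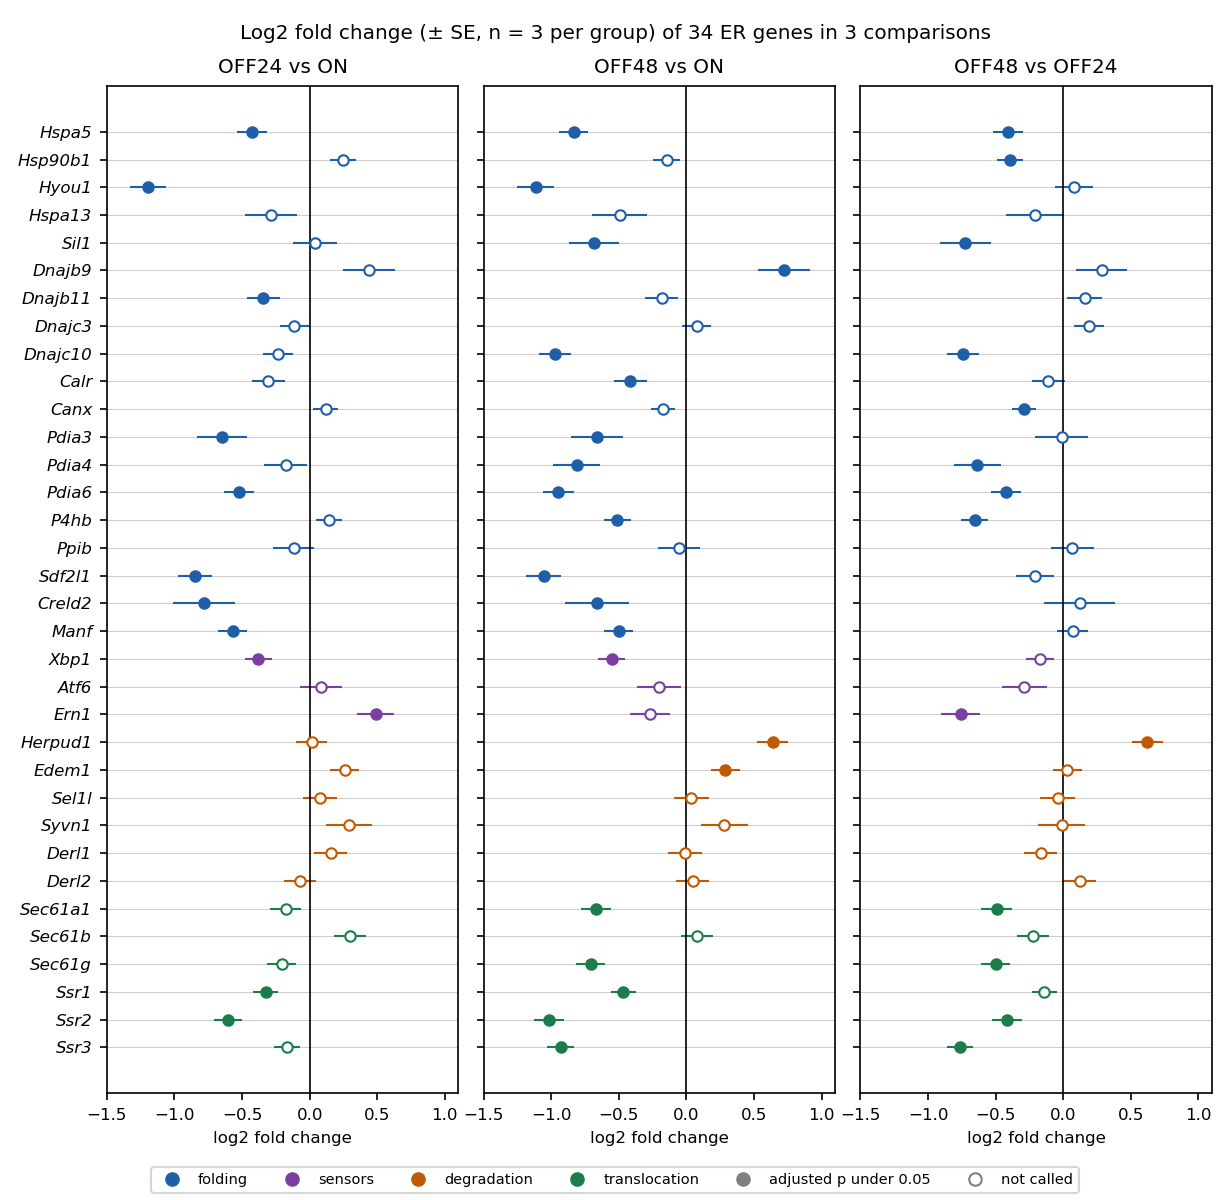
Log2 fold change ± SE (x axis, from edgeR) of the 34 genes in OFF24 against ON, OFF48 against ON and OFF48 against OFF24, n = 3 libraries per group. Colours give the role, and filled points have an adjusted p under 0.05. Most folding and translocation genes lie left of the line at 48 h, and the 6 degradation genes lie near it or to its right.

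The HSP70 and HSP90 machinery was led by Hspa5 and its partner Hyou1. Hspa5, which encodes BiP, the main HSP70 of the ER and the chaperone that holds the stress sensors inactive, had 1319, 1400.1 and 1344 CPM in the ON libraries, 962, 963 and 1099 CPM in the OFF24 libraries and 784, 868 and 632 CPM in the OFF48 libraries. The 3 groups did not overlap, and ON was the highest. Log2 fold changes are given ± the standard error (SE). Relative to ON, Hspa5 was 1.34-fold lower at 24 h (log2 -0.43 ± 0.11, edgeR adjusted p = 0.00496) and 1.78-fold lower at 48 h (log2 -0.83 ± 0.11, edgeR adjusted p = 4.47e-06). OFF48 was also lower than OFF24 (log2 -0.41 ± 0.11, edgeR adjusted p = 0.0112), a call lost without OFF24 replicate 3 (adjusted p = 0.104), without OFF48 replicate 3 (0.0765) and with the deposited log2 values (0.143). In mm10 (GRCm38, GENCODE M21) it lies on chromosome 2, 34771970 to 34777547, plus strand.

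Hyou1 encodes a large HSP70-like protein that exchanges the nucleotide of BiP. It lies on chromosome 9, 44379490 to 44392369, plus strand, and had 276, 349 and 265 CPM in the ON libraries, 114, 138 and 136 CPM in the OFF24 libraries and 135, 167 and 116 CPM in the OFF48 libraries. All 6 OFF libraries lay below all ON libraries, and OFF24 and OFF48 overlapped. Its fall was the largest of the 34 at both times, log2 -1.19 ± 0.13 at 24 h (edgeR adjusted p = 1.82e-06) and -1.11 ± 0.14 at 48 h (edgeR adjusted p = 1.92e-06), with no call between the times (log2 0.08 ± 0.14). Sil1, the other nucleotide exchange factor of BiP, did not follow it at 24 h (log2 0.04 ± 0.16, edgeR adjusted p = 0.877). Sil1 had 34.4, 30.0 and 31.5 CPM in the ON libraries, 36.8, 30.4 and 31.9 CPM in the OFF24 libraries and 19.8, 28.5 and 15.5 CPM in the OFF48 libraries, so that OFF48 lay below both other groups. It fell by 48 h (log2 -0.68 ± 0.18, edgeR adjusted p = 0.00454) and was lower in OFF48 than in OFF24 (log2 -0.72 ± 0.19, edgeR adjusted p = 0.00851). Its 3' end is shared with AC147989.1, so its level is uncertain. Both calls rested on OFF48 replicate 3, the lowest library, without which the adjusted p was 0.0602 against ON and 0.0924 against OFF24. With the deposited log2 values the adjusted p against OFF24 was 0.0593.

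Hsp90b1, which encodes GRP94, a chaperone of integrins and Toll-like receptors, had 706, 627 and 722 CPM in the ON libraries, 833, 805 and 797 CPM in the OFF24 libraries and 656, 556 and 639 CPM in the OFF48 libraries. OFF24 was the highest group and did not overlap with the others, while OFF48 overlapped with ON. Its log2 difference from ON was 0.25 ± 0.10 at 24 h (edgeR adjusted p = 0.0549) and -0.15 ± 0.10 at 48 h (edgeR adjusted p = 0.226), and neither was called. The 24 h difference was called with upper quartile scaling (adjusted p = 0.0272), over genes with a mean of at least 10 CPM (0.0372), with limma-voom (0.0426) and in a fit of OFF24 and ON alone (0.0388). Between the times it was lower in OFF48 (log2 -0.39 ± 0.10, edgeR adjusted p = 0.00658), a call lost with the deposited log2 values (adjusted p = 0.125). Hspa13, an HSP70-like ATPase of microsomes, had 15.1 to 16.4 CPM in OFF24 and 10.7 to 19.5 CPM in OFF48, against 16.8 to 21.2 CPM in ON, with no call. At 48 h its adjusted p was 0.0546, against 0.0117 without OFF48 replicate 2, 0.0459 without ON replicate 3 and 0.0354 with limma-voom.

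The 4 ER J proteins, which bring clients to BiP and start its ATP cycle, had calls in both directions. Dnajc10 encodes ERdj5, a reductase that opens disulphides of proteins bound for degradation, and lies on chromosome 2, 80315466 to 80354043, plus strand. It had 192, 226 and 188 CPM in the ON libraries, 158, 189.9 and 168 CPM in the OFF24 libraries and 98.6, 118 and 96.8 CPM in the OFF48 libraries. OFF48 lay well below the other groups, which overlapped. It fell by 48 h (log2 -0.97 ± 0.12, edgeR adjusted p = 1.51e-06) and lay lower in OFF48 than in OFF24 (log2 -0.74 ± 0.12, edgeR adjusted p = 0.000162), with -0.23 and no call at 24 h.

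Dnajb9, which encodes ERdj4, a J protein that returns IRE1 to BiP, went the other way. It had 38.8, 26.8 and 36.9 CPM in the ON libraries, 50.2, 42.7 and 45.6 CPM in the OFF24 libraries and 51.3, 37.5 and 72.3 CPM in the OFF48 libraries, with OFF48 spread widely and overlapping with ON. Its 3' end is shared with Gm6568, so its level is uncertain. It rose by 48 h (log2 0.72 ± 0.19, edgeR adjusted p = 0.00481), a call lost without OFF48 replicate 3, the highest library (adjusted p = 0.0663), and with the deposited log2 values (0.076). At 24 h all 3 OFF24 libraries lay above ON, with no call (log2 0.44 ± 0.19, edgeR adjusted p = 0.0858), although it was called without OFF48 replicate 2 (adjusted p = 0.0422) or replicate 3 (0.0432), which change the shared estimate of spread. Dnajb9 was called too with no filter on low counts (0.0344) and in a fit of OFF24 and ON alone (0.0281). Dnajb11 encodes ERdj3, a J protein that holds unfolded chains for BiP, and had 76.8, 58.5 and 68.3 CPM in the ON libraries, 51.4, 53.4 and 55.4 CPM in the OFF24 libraries and 61.4, 58.5 and 58.9 CPM in the OFF48 libraries. The OFF24 libraries lay below all ON libraries, and it fell at 24 h (log2 -0.34 ± 0.12, edgeR adjusted p = 0.0349). That call lay at the threshold and was lost without ON replicate 1 (adjusted p = 0.162), ON replicate 3 (0.0677), OFF24 replicate 1 (0.0881), OFF24 replicate 2 (0.0769) or OFF24 replicate 3 (0.0594). It was lost too with upper quartile scaling (0.0608), DESeq2 (0.0776) and the deposited log2 values (0.0864). Dnajc3, or p58IPK, an inhibitor of PERK, had 108 to 145 CPM over all 9 libraries and no call.

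Among the lectin chaperones, which bind glucose-trimmed glycans, calreticulin and the isomerase that works with it fell, and calnexin had no call relative to ON. Pdia3 encodes ERp57, the isomerase that works with both lectins. It had 202.8, 251 and 191 CPM in the ON libraries, 108, 145 and 157 CPM in the OFF24 libraries and 124, 188 and 107 CPM in the OFF48 libraries, all 6 OFF libraries being below all ON libraries. The log2 fold change was -0.65 ± 0.19 at 24 h (edgeR adjusted p = 0.0171) and -0.66 ± 0.19 at 48 h (edgeR adjusted p = 0.0123). Its spread was wide, and the call at 24 h was lost without ON replicate 2 (adjusted p = 0.0523) or OFF24 replicate 1 (0.0543), and that at 48 h without OFF48 replicate 1 (0.0587) or OFF48 replicate 3 (0.0584). The deposited log2 values gave adjusted p = 0.0802 at 24 h and 0.0579 at 48 h.

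Calr, the soluble lectin, which also stores calcium, had 605, 753 and 545 CPM in the ON libraries, 475, 541 and 524 CPM in the OFF24 libraries and 466, 549.7 and 418 CPM in the OFF48 libraries. It fell by 48 h (log2 -0.42 ± 0.12, edgeR adjusted p = 0.00915), although OFF48 replicate 2 overlapped with ON, and the call was lost without ON replicate 2 (adjusted p = 0.0589) or OFF48 replicate 3 (0.055) and with the deposited log2 values (0.0977). At 24 h its log2 value was -0.31 ± 0.12, just outside the threshold (edgeR adjusted p = 0.0582), and it was called without ON replicate 3 (adjusted p = 0.0233), OFF48 replicate 2 (0.0251) or OFF48 replicate 3 (0.035). Calr was called too with RLE scaling (0.0494), library totals only (0.0465) or no filter on low counts (0.00837). A fit of OFF24 and ON alone (0.0273) and one without rows of equal counts (0.047) also called it. Canx, the membrane-bound lectin, varied little within each group, with 319.6, 318 and 319 CPM in the ON libraries, 342, 346 and 351 CPM in the OFF24 libraries and 277, 296 and 277 CPM in the OFF48 libraries. The groups did not overlap, but the log2 differences from ON were only 0.12 ± 0.09 at 24 h and -0.17 ± 0.09 at 48 h, with no call. Between the times it was lower in OFF48 (log2 -0.29 ± 0.09, edgeR adjusted p = 0.0289), a call lost without ON replicate 1 (adjusted p = 0.0603), OFF24 replicates 1 (0.0809), 2 (0.103) or 3 (0.131), or OFF48 replicates 1 (0.1) or 3 (0.0879), and with the deposited log2 values (0.0814) or no filter on low counts (0.0754).

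The other disulphide isomerases were all lower at 48 h. Pdia6 encodes P5, an isomerase that works with BiP, and lies on chromosome 12, 17266545 to 17284770, plus strand. It had 681, 749 and 643 CPM in the ON libraries, 455, 469 and 518 CPM in the OFF24 libraries and 361, 412 and 308 CPM in the OFF48 libraries. The groups did not overlap, ON being the highest and OFF48 the lowest. It fell at 24 h (log2 -0.52 ± 0.11, edgeR adjusted p = 0.00111) and at 48 h (log2 -0.95 ± 0.11, edgeR adjusted p = 1.13e-06), and OFF48 was lower than OFF24 (log2 -0.42 ± 0.11, edgeR adjusted p = 0.01), the last call being lost without OFF24 replicate 3 (adjusted p = 0.0875) or OFF48 replicate 3 (0.0701) and with the deposited log2 values (0.104). Its last exon overlaps Atp6v1c2 on the opposite strand, and the strand setting of the counting is not given, so its level is uncertain.

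P4hb, the founding protein disulphide isomerase and a subunit of prolyl 4-hydroxylase, had 747, 806 and 671 CPM in the ON libraries, 811, 824 and 821 CPM in the OFF24 libraries and 514, 571 and 478 CPM in the OFF48 libraries. OFF24 lay above all ON libraries with no call (log2 0.14 ± 0.10), and OFF48 lay below both groups. It fell by 48 h (log2 -0.51 ± 0.10, edgeR adjusted p = 0.000309) and lay lower in OFF48 than in OFF24 (log2 -0.66 ± 0.10, edgeR adjusted p = 9.73e-05). Pdia4, or ERp72, a disulphide isomerase, also lay lowest in OFF48, with 47.9, 43.5 and 56.9 CPM in the ON libraries, 40.1, 38.6 and 50.9 CPM in the OFF24 libraries and 22.1, 27.0 and 33.8 CPM in the OFF48 libraries. Its log2 value was -0.81 ± 0.17 at 48 h (edgeR adjusted p = 0.000625) and -0.64 ± 0.18 between the times (edgeR adjusted p = 0.0133), the call between the times being lost without OFF24 replicate 3 (adjusted p = 0.113) or OFF48 replicate 1 (0.107). Ppib, or cyclophilin B, a proline isomerase, had 42.6 to 67.8 CPM over all libraries and no call, and its 3' end is shared with Snx22 on the opposite strand.

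All 3 small ER stress proteins fell at both times, with no call between the times. Sdf2l1, which keeps ERdj3 in the BiP complex, had 105, 85.2 and 108 CPM in the ON libraries, 55.2, 54.3 and 55.7 CPM in the OFF24 libraries and 48.3, 38.2 and 52.8 CPM in the OFF48 libraries. The 3 OFF24 libraries lay within 2 CPM of each other, far below ON, with OFF48 lower still. The log2 values were -0.85 ± 0.13 at 24 h (edgeR adjusted p = 4.12e-05) and -1.06 ± 0.13 at 48 h (edgeR adjusted p = 2.21e-06), and it lies on chromosome 16, 17130138 to 17132383, minus strand. Manf, a secreted factor that binds BiP, had 186, 214 and 187 CPM in the ON libraries, 121, 135 and 139 CPM in the OFF24 libraries and 124, 153 and 141 CPM in the OFF48 libraries, with OFF24 and OFF48 overlapping below ON. It was 1.48-fold lower at 24 h (log2 -0.57 ± 0.11, edgeR adjusted p = 0.000442) and 1.42-fold lower at 48 h (log2 -0.50 ± 0.11, edgeR adjusted p = 0.000858), with a 3' end that overlaps Dcaf1 on the opposite strand.

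Creld2, a small protein that is induced by ER stress, had few counts, with 19.1, 16.7 and 10.7 CPM in the ON libraries, 10.0, 8.16 and 9.53 CPM in the OFF24 libraries and 8.39, 12 and 10.5 CPM in the OFF48 libraries. It fell at 24 h (log2 -0.78 ± 0.23, edgeR adjusted p = 0.013) and at 48 h (log2 -0.66 ± 0.24, edgeR adjusted p = 0.0275), where the groups overlapped through ON replicate 3. The call at 24 h was lost without ON replicate 1 (adjusted p = 0.0734) or OFF24 replicate 2 (0.0572), and that at 48 h without ON replicate 1 (0.142) or 2 (0.0618) or OFF48 replicate 1 (0.133) or 3 (0.0605). At 48 h DESeq2 gave an adjusted p of 0.0878 and the deposited log2 values 0.088.

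**Figure D3:**
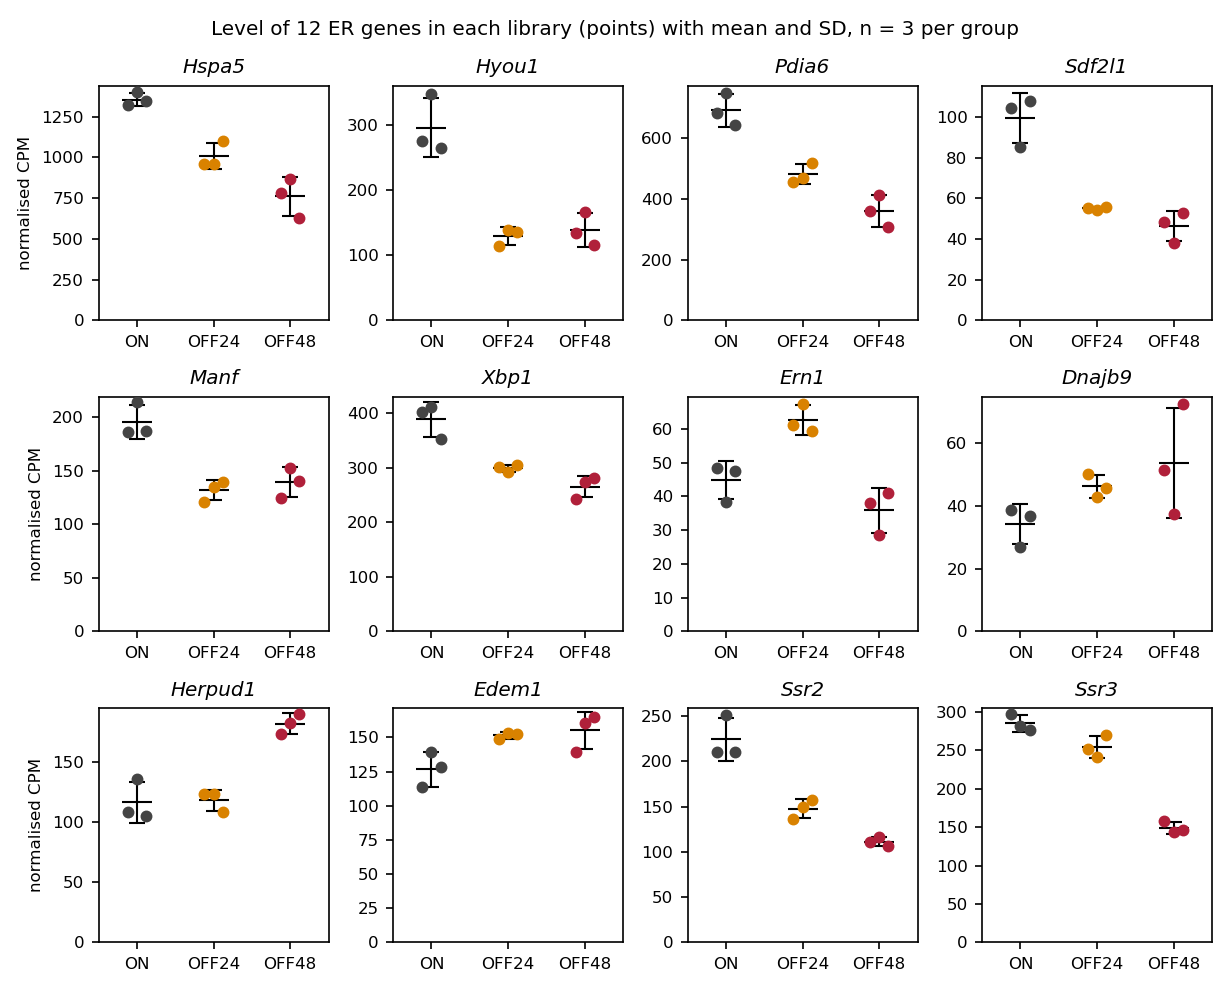
Level of 12 ER genes in each of the 9 libraries (points, TMM-scaled CPM on the y axis from 0), with the mean (long bar) and SD of the 3 libraries of each group, in the order ON, OFF24 and OFF48. Hyou1, Sdf2l1 and Manf are low in OFF24 and OFF48 alike, Hspa5, Pdia6 and Ssr2 have 3 separate levels, Ern1 is high in OFF24, and Herpud1 is high in OFF48.

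Of the sensors, the transcription factor fell while its upstream nuclease rose at 24 h. Xbp1 lies on chromosome 11, 5520659 to 5525893, plus strand, and had 402, 412 and 352 CPM in the ON libraries, 301, 292 and 304 CPM in the OFF24 libraries and 243, 274 and 280.5 CPM in the OFF48 libraries. The groups did not overlap. It fell at 24 h (log2 -0.38 ± 0.10, edgeR adjusted p = 0.00589) and at 48 h (log2 -0.55 ± 0.10, edgeR adjusted p = 0.00016), with no call between the times. The call at 24 h was lost with the deposited log2 values (adjusted p = 0.065). Ern1, which encodes IRE1, the kinase and nuclease that splices Xbp1 mRNA, lies on chromosome 11, 106394650 to 106487852, minus strand. It had 48.5, 38.3 and 47.6 CPM in the ON libraries, 61.0, 67.5 and 59.3 CPM in the OFF24 libraries and 37.9, 28.5 and 41.1 CPM in the OFF48 libraries. The OFF24 libraries lay above all others. Ern1 rose at 24 h (log2 0.49 ± 0.14, edgeR adjusted p = 0.0089), a call lost without ON replicate 2 (adjusted p = 0.055) or OFF24 replicate 2 (0.0595). It was lower in OFF48 than in OFF24 (log2 -0.76 ± 0.15, edgeR adjusted p = 0.000876), and against ON its 48 h value was -0.27 ± 0.15 with no call (edgeR adjusted p = 0.14), and adjusted p = 0.0472 without ON replicate 2. Atf6, which encodes the sensor that is cut in the Golgi and becomes a transcription factor, had 24.7 to 47.7 CPM over all libraries and no call.

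The 6 ERAD genes showed no fall in any of the comparisons. Herpud1, a membrane protein that gathers the ubiquitin ligase complex and that carries an ERSE-II, lies on chromosome 8, 94386438 to 94395377, plus strand. It had 109, 136 and 105 CPM in the ON libraries, 123, 124 and 108 CPM in the OFF24 libraries and 173, 182 and 190.4 CPM in the OFF48 libraries. The OFF48 libraries lay above all others, and ON and OFF24 overlapped. It rose by 48 h (1.56-fold, log2 0.64 ± 0.11, edgeR adjusted p = 0.000132) and relative to OFF24 (log2 0.62 ± 0.12, edgeR adjusted p = 0.00067), with a 24 h value of 0.02 ± 0.11. Edem1, a mannosidase-like protein that marks glycoproteins for ERAD and a known XBP1 target, had 113, 139 and 128 CPM in the ON libraries, 149, 153 and 153 CPM in the OFF24 libraries and 139.6, 160.5 and 165 CPM in the OFF48 libraries. The OFF libraries lay just above the ON libraries. It rose by 48 h (log2 0.29 ± 0.11, edgeR adjusted p = 0.0352), a call at the threshold that was lost without ON replicate 1 (adjusted p = 0.171), ON replicate 3 (0.0731), OFF48 replicate 2 (0.0664) or OFF48 replicate 3 (0.121) and with DESeq2 (0.0654), the deposited log2 values (0.0724), no filter on low counts (0.083) or a fit of OFF48 and ON alone (0.066). At 24 h it had log2 0.26 ± 0.11 and no call (edgeR adjusted p = 0.0678), but was called without ON replicate 2 (adjusted p = 0.0423). Upper quartile scaling (0.0363) and a fit over genes with a mean of at least 10 CPM (0.0478) also called it.

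The core of the ERAD ligase had no call in the edgeR fit. Syvn1, the ubiquitin ligase HRD1, had 44.3, 40.8 and 43.8 CPM in OFF24 and 42.9, 28.5 and 50.7 CPM in OFF48, against 42.6, 31.2 and 30.8 CPM in ON, with a 48 h adjusted p of 0.193, and 0.0328 without OFF48 replicate 2. Its last bases overlap Mrpl49 on the opposite strand. Sel1l, the adaptor of HRD1, ranged from 127 to 186 CPM over all libraries. The derlins, which help pull proteins through the membrane, ranged from 164 to 233 CPM for Derl1 and from 54.4 to 67.5 CPM for Derl2. Their log2 differences from ON ran from -0.07 (Derl2 at 24 h) to 0.16 (Derl1 at 24 h), and that of Sel1l was 0.08 ± 0.13 at 24 h and 0.04 ± 0.13 at 48 h. The SEs were 0.12 to 0.13 for these 3 genes.

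Of the translocation genes 2 had fallen at 24 h and 5 at 48 h. The Ssr genes encode the translocon-associated protein complex, which sits beside the channel and aids the entry of some signal sequences. Ssr2 lies on chromosome 3, 88575876 to 88588419, plus strand, and had 211, 252 and 211 CPM in the ON libraries, 136, 149.7 and 157 CPM in the OFF24 libraries and 111, 116 and 107 CPM in the OFF48 libraries. Its groups did not overlap, ON being the highest. It fell at 24 h (log2 -0.60 ± 0.10, edgeR adjusted p = 0.000202) and at 48 h (log2 -1.02 ± 0.11, edgeR adjusted p = 3.03e-07), and was lower in OFF48 than in OFF24 (log2 -0.41 ± 0.11, edgeR adjusted p = 0.0105), except without OFF24 replicate 3 (adjusted p = 0.0799). Its 3' end is shared, at 95% identity or more, with Gm10704 and Rtraf, so its level is uncertain.

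Ssr3 lies on chromosome 3, 65379655 to 65392623, minus strand, and had 297, 281 and 276 CPM in the ON libraries, 252, 241 and 269.6 CPM in the OFF24 libraries and 158, 143 and 147 CPM in the OFF48 libraries. The 3 OFF48 libraries lay far below all others. The log2 value was -0.17 ± 0.10 at 24 h with no call (edgeR adjusted p = 0.187), -0.93 ± 0.10 at 48 h (edgeR adjusted p = 2.79e-07) and -0.76 ± 0.10 between the times (edgeR adjusted p = 1.52e-05). Ssr1 had 272 ± 5.65 CPM in OFF24 and 247 ± 4.05 CPM in OFF48, against 342 ± 11.0 CPM in ON (SD, n = 3 each). It fell at 24 h (log2 -0.33 ± 0.09, edgeR adjusted p = 0.00886) and at 48 h (log2 -0.47 ± 0.09, edgeR adjusted p = 0.000343), with no call between the times.

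Of the 3 subunits of the channel itself, 2 were called at 48 h. Sec61a1, the subunit that forms the pore, had 628, 539.9 and 629 CPM in the ON libraries, 519, 517 and 552 CPM in the OFF24 libraries and 448, 349 and 331 CPM in the OFF48 libraries. ON and OFF24 overlapped, and OFF48 lay below both. It fell by 48 h (log2 -0.67 ± 0.11, edgeR adjusted p = 7.92e-05) and relative to OFF24 (log2 -0.49 ± 0.11, edgeR adjusted p = 0.00413). Sec61g, a small subunit that clamps the pore, had 1976, 2069 and 1978 CPM in the ON libraries, 1557, 1813 and 1843 CPM in the OFF24 libraries and 1389.9, 1259.8 and 1038 CPM in the OFF48 libraries. Its OFF48 libraries were the lowest, with log2 -0.71 ± 0.11 against ON (edgeR adjusted p = 2.35e-05) and -0.50 ± 0.11 against OFF24 (edgeR adjusted p = 0.00234). With the deposited log2 values neither subunit was called between the times (adjusted p = 0.0597 for Sec61a1 and 0.134 for Sec61g). Sec61b, the other small subunit, had 363, 299 and 355 CPM in the ON libraries, 433, 383 and 437 CPM in the OFF24 libraries and 376, 289 and 401 CPM in the OFF48 libraries. OFF24 lay above ON without a call (log2 0.30 ± 0.12, edgeR adjusted p = 0.0557, and 0.0307 without OFF48 replicate 2), and at 48 h the log2 value was 0.08 ± 0.12. At 24 h Sec61b was called with upper quartile scaling (edgeR adjusted p = 0.0312) and in a fit of OFF24 and ON alone (0.0242). A fit over genes with a mean of at least 10 CPM (0.0441) also called it. The Sec61g row has the same count in every library as the rows Gm4184 and LOC102637269, and shares its 3' end with 4 other annotated genes. Sec61b shares its 3' end with 3 such genes, and Sec61a1 with Gm44170 on the opposite strand, so that all 3 levels are uncertain.

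Set side by side, the folding genes had 8 of 19 lower and 0 higher at 24 h, and 12 lower and 1 higher at 48 h. Their median log2 fold change was -0.29 at 24 h and -0.51 at 48 h. The translocation genes had 2 of 6 lower at 24 h and 5 of 6 lower at 48 h, with medians of -0.19 and -0.69. The degradation genes had 0 of 6 called at 24 h and 2 of 6 higher at 48 h, with medians of 0.12 and 0.16. Between the times 8 folding genes and 4 translocation genes were lower in OFF48, and 1 degradation gene was higher. Over all tested genes 17.4% fell and 17.8% rose at 24 h, and 23.9% fell and 23.4% rose at 48 h. Between the times 11.2% of all tested genes were lower in OFF48 and 9.99% higher. With only 6 genes, the 0 lower and 2 higher degradation genes at 48 h lie close to these shares. The classes hold few genes that share the same libraries, and the difference between classes was not tested. Their counts moved under the alternatives, the folding genes that fell at 48 h numbering 8 to 13, the translocation genes 4 to 5 and the degradation genes that rose 1 to 2.

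**Figure D4:**
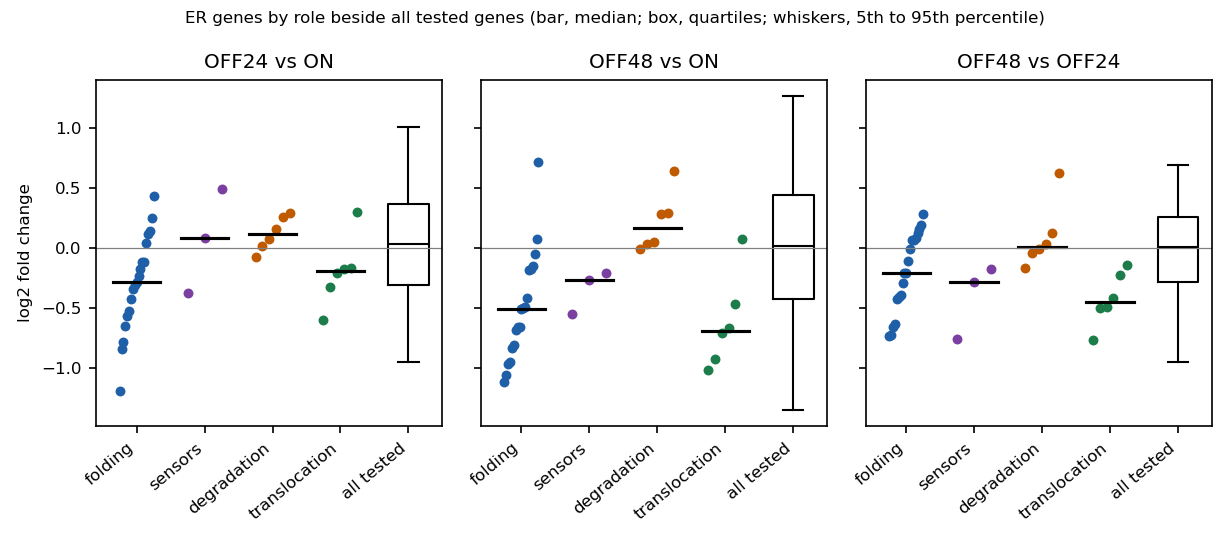
Log2 fold change (y axis) of each of the 34 genes by role (points, with a bar at the median) beside the median, quartiles and 5th to 95th percentiles of all 10215 tested genes, for the 3 comparisons. At 48 h the medians are -0.51 for folding, -0.69 for translocation and 0.16 for degradation, against 0.01 for all genes.

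Most of the falls had 1 of 3 time courses. Hyou1, Pdia3, Sdf2l1, Creld2, Manf, Xbp1 and Ssr1 were lower at both times with no call between them. Hspa5, Pdia6 and Ssr2 were lower at both times and lower again in OFF48 than in OFF24. Sil1, Dnajc10, Pdia4, P4hb, Sec61a1, Sec61g and Ssr3 were called lower at 48 h against both ON and OFF24. There were 9 genes with no call in any comparison, Hspa13, Dnajc3, Ppib, Atf6, Sel1l, Syvn1, Derl1, Derl2 and Sec61b.

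The genes with an ERSE or ERSE-II did not all fall. Of these 10, 4 fell and 0 rose at 24 h (median log2 -0.21), and 4 fell and 1 rose at 48 h (median -0.18). Of the 16 genes whose promoters held neither, 4 fell and 1 rose at 24 h (median -0.14), and 9 fell and 2 rose at 48 h (median -0.49). Over all tested genes 17.4% fell and 17.8% rose at 24 h, and 23.9% fell and 23.4% rose at 48 h, and the difference between carriers and the other genes was not tested. Among the carriers of an ERSE, Hspa5 stood at log2 -0.83 and Pdia6 at -0.95 at 48 h, Dnajc3 at 0.08 and Syvn1 at 0.28.

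Other genes of these pathways, listed by role, were read from the same fit, and those named here were among the smallest p-values of their list and kept their call without any single library. In the list of other sensors and stress arms, 6 of 15 tested genes fell and 1 rose at 24 h, and 6 fell and 4 rose at 48 h. The shares of all tested genes beside these were 17.4% lower and 17.8% higher at 24 h, and 23.9% lower and 23.4% higher at 48 h. The genes of this list named first belong to the PERK and ATF4 arm, which other stresses also use. Trib3, which encodes a pseudokinase downstream of ATF4 and CHOP, stood at 4.15 ± 0.263 CPM in OFF24 and 4.56 ± 1.97 CPM in OFF48, against 32.5 ± 4.38 CPM in ON (SD, n = 3 each). Its log2 fold change was -2.97 ± 0.23 at 24 h (edgeR adjusted p = 1.98e-08). Chac1, with few counts, fell at 24 h (log2 -2.42 ± 0.35, edgeR adjusted p = 3.3e-05) but had no call at 48 h (log2 -0.60 ± 0.29, edgeR adjusted p = 0.0907). Chac1 was higher in OFF48 than in OFF24 (log2 1.82 ± 0.40, edgeR adjusted p = 0.00274). Ddit3, which encodes CHOP, fell at 24 h (log2 -0.77 ± 0.21, edgeR adjusted p = 0.00644) and at 48 h (log2 -0.92 ± 0.22, edgeR adjusted p = 0.00163). So did Atf4, at 24 h (log2 -1.44 ± 0.14, edgeR adjusted p = 7.75e-07) and at 48 h (log2 -1.20 ± 0.14, edgeR adjusted p = 2.12e-06). Eif2ak3, which encodes PERK itself, rose by 48 h, with 29.3 ± 4.65 CPM in OFF48 against 17.2 ± 4.91 CPM in ON (log2 0.71 ± 0.20, edgeR adjusted p = 0.00584). Bloc1s1, an mRNA that IRE1 cuts and thereby degrades, rose at 24 h (log2 0.76 ± 0.18, edgeR adjusted p = 0.00296) and at 48 h (log2 1.15 ± 0.18, edgeR adjusted p = 3.36e-05).

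In the list of other folding genes, 7 of 30 fell and 1 rose at 24 h, and 8 fell and 5 rose at 48 h, where all tested genes had 17.4% lower and 17.8% higher at 24 h and 23.9% lower and 23.4% higher at 48 h. Txndc5, a disulphide isomerase, stood at 7.89 ± 0.458 CPM in OFF24 and 2.92 ± 1.58 CPM in OFF48, against 15.9 ± 1.13 CPM in ON (SD, n = 3 each). Ero1l, the oxidase that recharges disulphide isomerases, had its call at 48 h, with 289 ± 17.0 CPM in OFF48 against 635 ± 81.6 CPM in ON (log2 -1.14 ± 0.11, edgeR adjusted p = 5.47e-08) and 695 ± 28.7 CPM in OFF24 (log2 0.13 ± 0.10 against ON, with no call). Mogs, the glucosidase that trims the first glucose from new glycans, fell at 24 h (log2 -0.83 ± 0.12, edgeR adjusted p = 3e-05).

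In the list of other ERAD genes, 3 of 30 fell and 3 rose at 24 h, and 2 fell and 12 rose at 48 h, beside 17.4% of all tested genes that fell and 17.8% that rose at 24 h, and 23.9% and 23.4% at 48 h. Svip, a small inhibitor of ERAD that binds VCP, rose at 24 h (log2 0.90 ± 0.12, edgeR adjusted p = 1.17e-05) and at 48 h (log2 0.99 ± 0.12, edgeR adjusted p = 1.76e-06). Man1b1, a mannosidase that starts glycoprotein ERAD, rose by 48 h (log2 0.69 ± 0.13, edgeR adjusted p = 0.00017). The 2 that fell at 48 h were Vcp, the ATPase that extracts ERAD clients from the membrane, at log2 -0.75 ± 0.10 (edgeR adjusted p = 6e-06), and Ube2j2, a ubiquitin-conjugating enzyme, at -0.63 ± 0.12 (edgeR adjusted p = 0.000349).

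In the list of other translocation, targeting and glycosylation genes, 10 of 39 fell and 3 rose at 24 h, and 18 fell and 3 rose at 48 h. Of all tested genes 17.4% fell at 24 h and 23.9% at 48 h, and 17.8% and 23.4% rose. Rpn1, a subunit of the oligosaccharyltransferase that adds glycans to entering chains, stood at 540.2 ± 31.2 CPM in OFF24 and 387 ± 51.3 CPM in OFF48, against 849 ± 115 CPM in ON (SD, n = 3 each; log2 -1.13 ± 0.12 at 48 h, edgeR adjusted p = 2.18e-07). Emc6, of the ER membrane protein complex, which inserts membrane proteins, fell at 24 h (log2 -0.89 ± 0.11, edgeR adjusted p = 7.68e-06) and at 48 h (log2 -1.07 ± 0.12, edgeR adjusted p = 4.8e-07). Srp72, of the signal recognition particle, fell by 48 h (log2 -0.64 ± 0.09, edgeR adjusted p = 1.82e-05). Tram1, a membrane protein beside the channel, rose by 48 h (log2 0.41 ± 0.12, edgeR adjusted p = 0.00688), and Sec62, a partner of the channel that also serves in ER clearance, rose too (log2 0.41 ± 0.10, edgeR adjusted p = 0.00161). Each of these 4 lists held genes that rose and genes that fell at 48 h.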

How the data were processed

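The samples were 9 libraries of 1 mouse leukaemia line, 3 each of ON, OFF24 and OFF48, grouped by their titles. Per the labels' protocols, DNase-treated RNA was made into 3' libraries with the Lexogen QuantSeq kit. Per the submitters' processing notes, the tools included limma 3.42.2, HISAT2 2.0.4, cutadapt 1.5 and featureCounts of Subread 1.5.0-p3, with build mm10. Gene annotation, strand setting and handling of multiply mapped reads were not given in the sources used here. As deposited by the authors, the files are a table of whole-number read counts per gene, not normalised (24756 rows, 16962 with a count), and a table of voom-limma normalised log2 values (10552 rows), used only as an alternative.

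Counts were filtered with filterByExpr (minimum count 10, minimum total 15), scaled by TMM and tested in edgeR 4.0.16 (R 4.3.3) with a robust quasi-likelihood fit of all 9 libraries, 1 mean per group and 6 residual degrees of freedom. P-values were adjusted by Benjamini-Hochberg over 10215 genes. An SE is the size of the log2 fold change divided by the square root of F. Between replicates, chi-square per degree of freedom was 1.99 to 6.99, no pair was identical, and the common biological coefficient of variation was 0.105. Reads have no molecular identifiers in these tables, so the floor of 3 counts covers counting error only. The fit was tested on simulated data. The members and lists were chosen with earlier results of these data known. All 34 members are accounted for, and of each wider list up to 3 tested genes per direction and comparison with the smallest p could be named. Positions come from GENCODE M21, and the last 400 bases of each member were searched against all its transcripts with blastn 2.17.0 (identity of 95% or more over at least 100 bases), which found a shared end for 8 members and none for 26. Of 10215 tested rows, 220 have the same counts as another row. Replicate numbers in the titles do not state a shared culture or day. Same-numbered ON and OFF48 samples had deviations correlated at 0.115, 0.406 and 0.189, and a fit with the number as a block is among the alternatives. Each count was recomputed under 20 alternatives, among them DESeq2 1.42.0 and limma 3.58.1. Lymphoid and plasma cell markers are not reported here.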

Additional observations from a re-analysis of the deposited data

Results flagged for a closer look

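For 14 of the 34 genes the change at 48 h differed from that at 24 h, by the direct comparison of OFF48 with OFF24 in the edgeR fit (log2 fold changes, adjusted p under 0.05). Over all tested genes 11.2% were lower and 9.99% higher in OFF48 than in OFF24. The 2 times share the ON libraries. This comparison does not use the ON means, but the ON libraries enter its filter, scaling and shared estimate of spread. Lower in OFF48 than in OFF24 were the folding genes Hspa5 (-0.41), Hsp90b1 (-0.39), Sil1 (-0.72), Dnajc10 (-0.74), Canx (-0.29), Pdia4 (-0.64), Pdia6 (-0.42) and P4hb (-0.66). The sensor gene Ern1 (-0.76) was lower too, as were the translocation genes Sec61a1 (-0.49), Sec61g (-0.50), Ssr2 (-0.41) and Ssr3 (-0.76). The degradation gene Herpud1 (0.62) was higher. Among these 14, only Ern1 was called higher in OFF24 than in ON.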

How the results depend on the processing

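The number of members called at 24 h, 12, ran from 9 (deposited log2 values with limma) to 18 over the 20 alternatives, that at 48 h, 21, from 15 to 22, and that between the times, 14, from 7 to 15. The 7 came from the deposited log2 values with limma, and leaving out 1 library in turn gave 9 (without OFF24 replicate 3) to 14 between the times. Between the times the folding genes called lower, 8, numbered 3 to 8, and the translocation genes, 4, numbered 2 to 5. The degradation genes called higher at 48 h, 2, numbered 1 to 2, and those at 24 h, 0, numbered 0 to 1. In the wider lists, the folding genes lower at 24 h, 7, numbered 4 to 7, the translocation genes lower at 24 h, 10, numbered 5 to 12, and the ERAD genes higher at 24 h, 3, numbered 2 to 6. Without OFF48 replicate 3 the count at 48 h was 15. No called member changed direction in any of these alternatives. Upper quartile scaling gave 4 members higher and 10 lower at 24 h, against 1 and 11 with TMM, and made 56.4% of all calls higher against 50.6%, while between the times it made 39.9% higher against 47.2%. No scaling moved the median of all genes by over 0.1. Deviations of same-numbered samples from their group means correlated at 0.115 to 0.406 in the 3 pairs of ON and OFF48, but at or under 0.1 in 4 of the other 6 pairs, and samples with different numbers stood at -0.283 to 0.191. The results above come from a fit that does not use the number. As a block in an alternative fit, it changed no member's call for OFF48 against ON. With the replicate number as a block, 18, 21 and 15 members were called at 24 h, 48 h and between the times. The calls that the block added at 24 h were Hsp90b1 (adjusted p = 0.0179), Dnajb9 (0.0176), Edem1 (0.0303) and Sec61b (0.00645), all higher, and Calr (0.0103) and Dnajc10 (0.0402), both lower, so that 10 folding genes were lower and 2 higher at 24 h, against 8 and 0 without it. Between the times it added Sec61b (adjusted p = 0.0466). Creld2 and Hspa13 had few counts, with 3 libraries per group. The causes of these shifts were not tested.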
